A study of Mus musculus with 9 samples.

Results

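The 10 genes described here belong to the serotonin system, and they are 10 of the 20731 gene symbols counted by RNA-seq in 9 mouse brain libraries. They are Tph2, Slc6a4 and Fev, which mark the neurons that make serotonin, and the receptor genes Htr1a, Htr1b, Htr2a, Htr2c, Htr4, Htr5a and Htr7. The genes were taken by symbol, and the set was chosen with measured values of the same libraries known. Htr1a, Htr4 and Htr7 had been picked for their difference between the CVST+Ligation and CVST groups, so that comparison is given here as a description and not as a test. Of the 10 genes, 8 had enough counts for edgeR's expression filter and were tested among 14746 genes, and Slc6a4 and Fev did not pass it.

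All libraries came from male C57BL/6J mice aged 8 to 10 weeks, with 3 libraries in each group and tissue taken on day 2 after modelling. According to the methods 3 mice of each group went to sequencing, while the labels only number the libraries, and the p-values measure the spread between them. Every mouse carried cerebral venous sinus thrombosis (CVST), which was made in the superior sagittal sinus with ferric chloride. The CVST group had thrombosis alone, and no library from a sham operation was used here. In the CVST+Ligation group the deep cervical lymph nodes, which take up fluid drained by the lymphatic vessels of the meninges, were also ligated. The 4-PBA group had thrombosis, ligation and 100 mg/kg of 4-phenylbutyric acid, a chemical chaperone that lowers endoplasmic reticulum stress. According to the methods it was injected 30 min before modelling, whereas the description of the data set places it after ligation. The sample labels give the tissue as brain, and the description of the data set gives cortex.

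Serotonin in the brain is made by neurons of the raphe nuclei, a chain of cell groups along the midline of the midbrain, pons and medulla, whose axons reach the whole forebrain. In these neurons Tph2 hydroxylates tryptophan, Ddc makes serotonin from the product, Slc18a2 loads it into vesicles and Slc6a4 takes it back up after release. The mRNAs of Tph2, Slc6a4 and Fev lie in the cell bodies, so cortex, which holds only the axons, has very little of them. The receptors are made by the target cells and by the raphe neurons themselves, and signal through Gi/o, Gq or Gs proteins.

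The libraries held 18100739 to 25091498 counted reads each. Levels are given as CPM, counts scaled to a common library size by the TMM method, and a floor of 3 counts equals 0.114 to 0.163 CPM at this depth. The common biological coefficient of variation within groups was 0.287. With 3 libraries in each group the smallest exact permutation p for a single gene is 0.1, so p-values come from the edgeR model. Within the CVST+Ligation group, replicate 2 stood apart. Its log2 CPM correlated across genes with those of replicates 1 and 3 at 0.946 and 0.947, while replicates 1 and 3 correlated with each other at 0.982. The fold changes of the tested genes of the set and the counts of the gene lists below are therefore also given without this library, from a fit chosen after seeing the data.

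The genes of the serotonin neurons lie on 3 chromosomes of GRCm38, the build named in the submitters' processing notes. Tph2 is at chr10:115078641-115185022 on the minus strand, Slc6a4 at chr11:76998603-77032340 on the plus strand and Fev at chr1:74881509-74885419 on the minus strand (GENCODE M21). Fev encodes an ETS transcription factor of serotonin neurons that acts on Tph2 and Slc6a4, and ETS proteins bind DNA at a GGAA core. Because the 3 genes were high together in 1 library, the 250 bases before each transcription start are shown, from RefSeq on GRCm38.p6 and 5′ to 3′ on the strand of the gene. Capitals mark the letters GGAA, or TTCC where the core is on the other strand.
Tph2, chr10:115185023-115185272, minus strand: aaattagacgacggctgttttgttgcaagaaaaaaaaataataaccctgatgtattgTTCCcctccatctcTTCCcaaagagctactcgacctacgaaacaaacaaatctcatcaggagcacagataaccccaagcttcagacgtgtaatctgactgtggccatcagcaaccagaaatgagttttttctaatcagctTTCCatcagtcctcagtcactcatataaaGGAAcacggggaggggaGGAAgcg
Slc6a4, chr11:76998347-76998596, plus strand: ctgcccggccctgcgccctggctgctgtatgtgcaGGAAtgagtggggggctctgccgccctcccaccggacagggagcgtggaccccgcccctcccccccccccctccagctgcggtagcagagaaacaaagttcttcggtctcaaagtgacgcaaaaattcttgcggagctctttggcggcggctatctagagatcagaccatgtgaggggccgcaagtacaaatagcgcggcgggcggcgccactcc
Fev, chr1:74885409-74885658, minus strand: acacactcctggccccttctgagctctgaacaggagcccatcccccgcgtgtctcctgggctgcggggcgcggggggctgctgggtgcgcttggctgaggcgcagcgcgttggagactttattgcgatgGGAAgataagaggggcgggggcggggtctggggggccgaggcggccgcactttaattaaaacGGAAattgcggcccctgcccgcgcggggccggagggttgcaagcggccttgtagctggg

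The letters GGAA, read on both strands, occurred 5 times before Tph2, 1 time before Slc6a4 and 2 times before Fev. So short a word is in 93.4% of the 32851 promoters of the same length in the RefSeq table. The longer ETS word CCGGAA was in none of the 3 windows and in 12.0% of all promoters. The windows differed in base composition. The Tph2 window had a GC content of 43.6% and the letters TATAAA beginning 30 bases before the start, a word found on either strand in 12.4% of all promoters. The windows of Slc6a4 and Fev had no TATAAA and a GC content of 64.8% and 68.0%, against a median of 52.4%. These matches are descriptions of the sequence and not of binding.

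The 3 serotonin neuron genes were high in a single library, CVST+Ligation replicate 2, and had at most 52 counts in any of the other 8. Tph2, the rate-limiting enzyme of serotonin synthesis in neurons, had 24, 30 and 19 counts in the CVST group, 33, 2631 and 22 in the CVST+Ligation group, and 13, 11 and 52 in the 4-PBA group. On the CPM scale these were 1.02, 1.33 and 1.03 in the CVST group, 1.36, 136 and 0.967 after ligation, and 0.704, 0.463 and 1.98 with 4-PBA. The level in replicate 2 was 68.4-fold the next highest, in 4-PBA replicate 3 (95% counting interval 52.0 to 91.9). Apart from that library the groups overlapped.

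Slc6a4, the serotonin transporter and the target of the SSRI antidepressants, had 0, 2 and 0 counts in the CVST group, 0, 1980 and 0 after ligation, and 4, 10 and 4 with 4-PBA. Apart from CVST+Ligation replicate 2, the 4-PBA libraries were thus above the others, by a few counts. Its 102 CPM in CVST+Ligation replicate 2 was 243-fold the next highest library (95% counting interval 132 to 506). Fev had 0 counts in every CVST library, 0, 78 and 0 counts after ligation, and 0, 2 and 1 with 4-PBA. Its 4.02 CPM in replicate 2 was 47.8-fold the level of 4-PBA replicate 2, where it rested on 2 counts (12.8 to 401), and 24.7-fold the floor of 3 counts in CVST replicate 3, the highest floor among the other libraries. These intervals cover counting error only and do not speak for the group.

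That library held 92.8% of all Tph2 reads of the 9 libraries, 99.0% of the Slc6a4 reads and 96.3% of the Fev reads. Among all 20731 genes, ranked by the ratio of the level in this library to the highest level elsewhere (with a floor of 3 counts), Slc6a4 stood 1st, Tph2 2nd and Fev 13th. Per length, Tph2 was at 95.4 FPKM in it, Slc6a4 at 55.6 and Fev at 5.82, so that the enzyme was 1.72 times the transporter and 16.4 times the transcription factor. Slc6a4 made up 42.9% of the reads of Slc6a4 and Tph2 together in this library (1980 of 4611 reads, exact 95% binomial interval 41.5% to 44.4%). It made up 10 of 21 reads, or 47.6% (25.7% to 70.2%), in 4-PBA replicate 2, 4 of 17 in 4-PBA replicate 1 and 4 of 56 in 4-PBA replicate 3. In the 3 CVST libraries together 2 of 75 reads were of Slc6a4, and in the other 2 CVST+Ligation libraries 0 of 55, which allows a share of up to 5.45%.

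**Figure D1:**
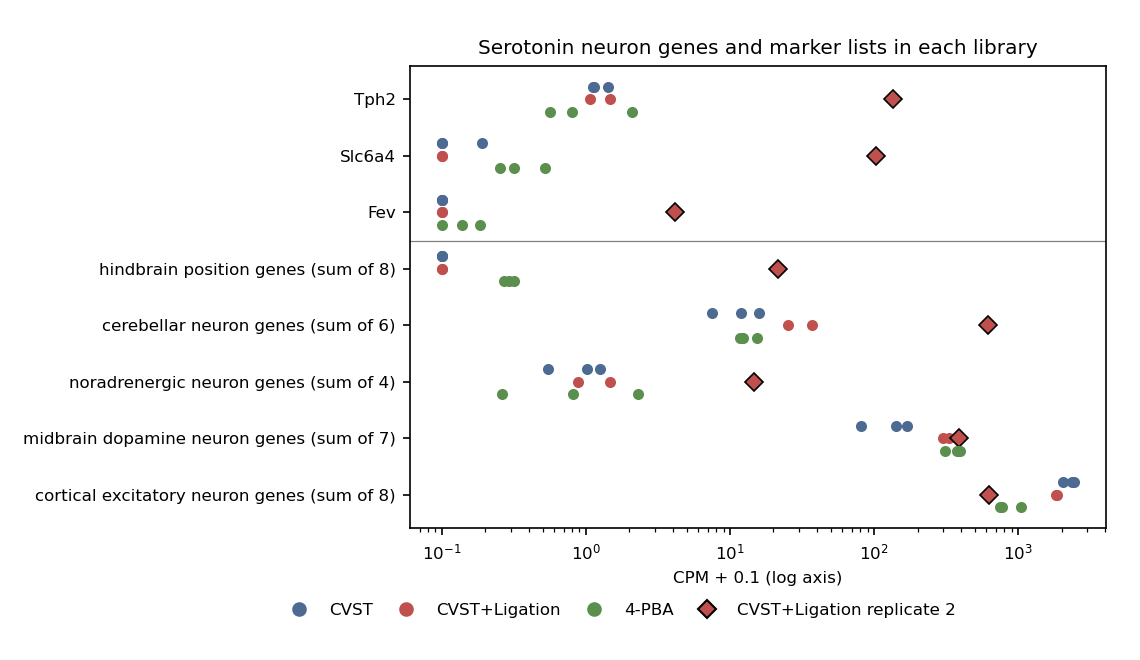
The horizontal axis gives CPM + 0.1 on a log scale, for Tph2, Slc6a4 and Fev (top) and for the summed CPM of 5 marker lists (bottom). Each point is 1 library, coloured by group, and the diamond is CVST+Ligation replicate 2, which had 136 CPM of Tph2 and 615 CPM of cerebellar neuron genes, above all other libraries, and 630 CPM of cortical excitatory neuron genes, below all others.

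Genes that mark other parts of the hindbrain were high in the same library. All 8 of the listed Hox genes, which set position along the hindbrain, were highest there, with a summed level of 21.3 CPM against 0 to 0.217 CPM in the other 8 libraries. All 6 listed genes of cerebellar neurons were highest there too, at 615 CPM in sum against 7.35 to 36.8 CPM. Of 4 noradrenergic neuron genes 3 were highest there, and the list summed to 14.5 CPM, 10.6 of it Dbh, against 0.163 to 2.21 CPM. The fourth, Phox2a, went the other way, with 0 counts there against 25 in CVST+Ligation replicate 3 and 23 in CVST replicate 1. Among all genes tested 17.3% had their highest level in this library, and this share ran from 3.50% to 21.3% over the 9 libraries. The 8 markers of cortical excitatory neurons were lowest in sum in this library, at 630 CPM against 743 to 2445 CPM. The part of tissue makeup in the levels of Tph2, Slc6a4 and Fev was not tested. In bulk tissue, fewer cells of a type and less RNA per cell cannot be told apart.

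Genes that act beside Tph2 in making and storing serotonin, but which dopamine neurons also use, followed another pattern. Ddc, the decarboxylase, had 5.18, 9.36 and 10.2 CPM in the CVST group, 59.3, 127 and 55.0 CPM after ligation, and 76.3, 75.8 and 78.7 CPM with 4-PBA. Slc18a2, the vesicular monoamine transporter, had 0.310 to 0.510 CPM in the CVST group, 12.3 to 31.6 CPM after ligation and 13.8 to 19.8 CPM with 4-PBA. Both were thus high in all 6 libraries of ligated mice, whereas Tph2 was high in 1 of the 6. In the comparison of 4-PBA with CVST, which uses none of the CVST+Ligation libraries for its means, the log2 fold change of Ddc was 3.22 (standard error 0.37, adjusted p = 0.0195) and that of Slc18a2 was 5.38 (standard error 0.43, adjusted p = 0.0048, edgeR with Benjamini-Hochberg adjustment). The listed markers of midbrain dopamine neurons summed to 80.5 to 169 CPM in the CVST group and to 300.2 to 395 CPM in the 6 ligated libraries. In CVST+Ligation replicate 2 Aldh1a1, an enzyme of aldehyde oxidation, made up 319.8 CPM of the list, against 131 to 214 CPM in the other 5 ligated libraries. Of the other 6 listed genes 5 were lower there than in those libraries: Slc6a3, the dopamine transporter, had 5.62 CPM against 44.7 to 69.5 CPM, Th, which makes the precursor of dopamine, 20.6 CPM against 46.0 to 59.4 CPM, the transcription factor gene Pitx3 0 CPM against 0.22 to 0.95 CPM, Chrna6, a nicotinic receptor subunit, 4.43 CPM against 7.96 to 16.5 CPM, and the transcription factor gene Foxa1 0.26 CPM against 0.35 to 1.63 CPM. Nr4a2, a transcription factor gene of the same list, had 37.3 CPM there, within the 23.0 to 81.6 CPM of the other 5 and above 2 of them. The part of these markers in the levels of Ddc and Slc18a2 was not tested.

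Of 15 listed genes for serotonin synthesis, storage and breakdown 13 were tested. Between CVST+Ligation and CVST 5 were higher at an unadjusted p below 0.05 and 0 lower, where 9.64% of all genes passed, with a median log2 fold change of 0.28 against 0.002 over all genes tested. They were Slc18a2, Ddc, Gch1 and Pcbd1, the last pair in the supply of the cofactor of Tph2, and the monoamine transporter Slc29a4. Of the list, 2 genes, Ddc and Slc18a2, passed after adjustment, where 0.0203% of all genes (3 genes) did. Between 4-PBA and CVST+Ligation 0 of the 13 passed at the unadjusted threshold in edgeR, where 3.23% of all genes did, with a median of 0.04. With 4-PBA against CVST 4 were higher, 2 of them after adjustment, where 15.4% of all genes passed at the unadjusted threshold, with a median of 0.53 against -0.01 over all genes. After adjustment 0.122% of all genes (18 genes) passed. The fit without CVST+Ligation replicate 2 tested 14 genes of the list, and 3 (Ddc, Slc18a2 and Slc29a4) were higher between CVST+Ligation and CVST, where 8.07% of all genes passed. In that fit 4 were higher with 4-PBA than after ligation (10% of all genes passed) and 5 higher with 4-PBA than in the CVST group (19.1%), 3 of them after adjustment. Of all 14950 genes, 541 passed after adjustment in the latter comparison. The breakdown enzymes Maoa and Maob were highest in CVST+Ligation replicate 2, at 93.6 and 62.7 CPM, against 68.5 to 80.8 and 22.1 to 39.4 CPM elsewhere.

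Of 12 listed transcription factors and other genes of raphe neurons, 11 were tested. Between CVST+Ligation and CVST 5 were higher (Lmx1b, Gata3, Foxa2, En1 and En2) and 0 lower at an unadjusted p below 0.05, where 9.64% of all genes passed, with a median log2 fold change of 0.91. None of them passed after adjustment in edgeR. En2 had 0.255, 0.576 and 0.271 CPM in the CVST group, 0.868, 23.7 and 1.54 CPM after ligation, and 1.03, 0.673 and 2.29 CPM with 4-PBA, and 7 of the 12 were highest in CVST+Ligation replicate 2. The same 5 genes were higher without that library, where 8.07% of all genes passed, with En2 at 1.68 (standard error 0.68) in place of 4.53 (standard error 1.25). Lmx1b, which serotonin neurons need to form, was at 0 to 0.0887 CPM in the CVST group, at 0.537, 2.32 and 0.527 CPM after ligation and at 0.421 to 1.22 CPM with 4-PBA. Between 4-PBA and CVST+Ligation 2 genes, Gata3 and En2, were lower, where 3.23% of all genes passed, with a median of -0.09 over the list. Without CVST+Ligation replicate 2, 0 of the 11 passed in edgeR in that comparison, where 10% of all genes did, and En2 went from -2.69 (standard error 1.11) to 0.17 (standard error 0.65). Gata3 was at -0.93 (standard error 0.66) in the fit without that library. In the comparison of 4-PBA with CVST 5 were higher and 0 lower, where 15.4% of all genes passed, with a median of 0.88. Without CVST+Ligation replicate 2, 7 were higher, 4 of them after adjustment. In that fit 19.1% of all genes passed at the unadjusted threshold and 541 of 14950 after adjustment. Gata3, Foxa2, En1, En2 and Lmx1b are also used by other neurons of the midbrain.

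The receptor genes were found in every library, and no receptor was high in CVST+Ligation replicate 2 alone. Htr1a encodes the receptor by which serotonin neurons restrain their own firing and which many cells of cortex and hippocampus carry as well. It lies at chr13:105443639-105448122. Htr1a had 3.44, 4.35 and 6.51 CPM in the CVST group, 11.9, 11.9 and 10.1 CPM after ligation, and 8.99, 5.18 and 7.13 CPM with 4-PBA. The CVST+Ligation libraries were above all of the others, and CVST+Ligation replicate 2 was not apart from its group. The 4-PBA libraries lay below the CVST+Ligation group and overlapped with the CVST group.

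Htr1b encodes a receptor on nerve terminals that limits transmitter release, and lies at chr9:81628291-81633828, where its exons overlap those of D430036J16Rik on the opposite strand. Its counts may therefore hold reads of that gene if the counting did not use strand. It had 14.2, 6.43 and 5.26 CPM in the CVST group, 5.46, 10.7 and 5.49 CPM after ligation, and 9.97, 14.1 and 4.80 CPM with 4-PBA, and the 3 groups overlapped throughout. Htr5a, at chr5:27842149-27855088, encodes the third receptor of the set that couples to Gi/o. It had 12.6, 9.09 and 4.34 CPM in the CVST group, 6.16, 4.17 and 8.35 CPM after ligation, and 5.58, 3.24 and 3.96 CPM with 4-PBA. The CVST and CVST+Ligation groups overlapped, and 2 of the 4-PBA libraries were below every CVST library.

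The 2 receptors that couple to Gq had different patterns. Htr2a, at chr14:74640840-74709494, encodes the receptor of cortical pyramidal neurons on which the psychedelic drugs act. It had 19.2, 8.51 and 5.10 CPM in the CVST group, 9.67, 4.17 and 8.57 CPM after ligation, and 7.26, 5.09 and 3.70 CPM with 4-PBA, with overlap between all groups. Htr2c, at chrX:146962513-147197277, encodes a receptor that is abundant in choroid plexus and is found in neurons of many regions. It had 14.1, 6.03 and 16.4 CPM in the CVST group, 44.8, 53.0 and 37.8 CPM after ligation, and 72.6, 54.4 and 30.9 CPM with 4-PBA. All 6 ligated libraries were above all CVST libraries.

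The summed level of the listed choroid plexus genes, most of it Ttr in all libraries but CVST+Ligation replicate 2, had another order than Htr2c. It was 838, 794 and 987 CPM in the CVST group, 101, 21.8 and 865 CPM after ligation, and 3155, 669 and 450.1 CPM with 4-PBA. CVST+Ligation replicate 2 had the lowest choroid plexus sum of all 9 libraries and 53.0 CPM of Htr2c, above 6 of the other 8. Ttr, at 5.72 CPM, Kl, Folr1 and Kcne2 were each lowest in that library, whereas Clic6, Kcnj13, Otx2 and Slc4a5 were not. The part of choroid plexus in the level of Htr2c was not tested. In 4-PBA replicate 1 both were at their highest. Of the 8 listed genes, Otx2, a transcription factor of the choroid plexus, was like Htr2c above the CVST group in all 6 ligated libraries, with 0.850, 0.976 and 0.868 CPM in the CVST group, 1.61, 3.25 and 1.49 CPM after ligation, and 8.99, 3.03 and 4.53 CPM with 4-PBA. The other 7 overlapped between the CVST and the ligated libraries.

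The 2 receptors that couple to Gs were low in the CVST group and higher in each of the ligated libraries. Htr4, a receptor that raises cAMP in neurons of the basal ganglia and hippocampus, had 11, 6 and 16 counts in the CVST group, 120, 45 and 77 after ligation, and 75, 84 and 171 with 4-PBA. These were 0.467, 0.266 and 0.868 CPM, 4.96, 2.32 and 3.38 CPM, and 4.06, 3.53 and 6.52 CPM. Htr7, at chr19:35958734-36057507, encodes a receptor known from thalamus and hypothalamus. It had 3.06, 3.72 and 3.31 CPM in the CVST group, 8.22, 7.52 and 7.12 CPM after ligation, and 12.6, 9.59 and 7.35 CPM with 4-PBA. In neither gene did a ligated library overlap with the CVST group, and in both the CVST+Ligation and 4-PBA groups overlapped.

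**Figure D2:**
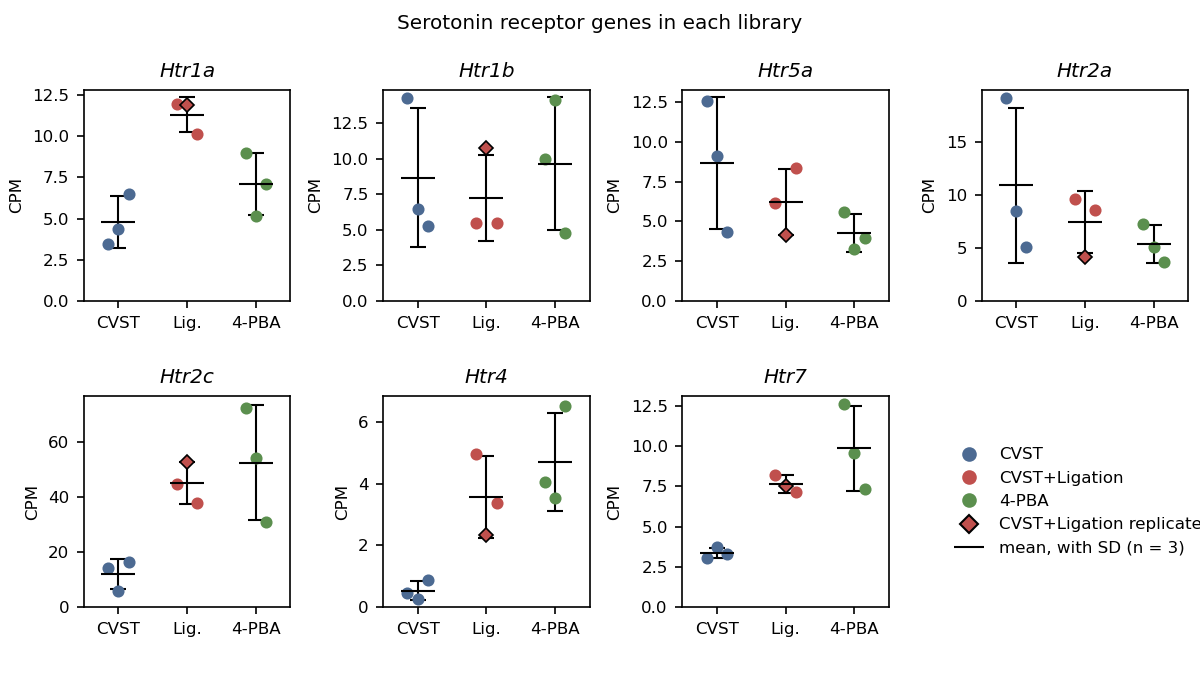
Each panel plots 1 receptor gene, with CPM on a linear vertical axis from 0 and the groups CVST, CVST+Ligation (Lig.) and 4-PBA along the horizontal axis. Points are libraries, the diamond is CVST+Ligation replicate 2, and bars give the mean and SD of 3 libraries. All 6 ligated libraries lie above the CVST libraries in Htr2c, Htr4 and Htr7.

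Htr2c, Htr4 and Htr7 were thus higher in all 6 ligated libraries than in any CVST library, and Htr1a in 5 of the 6. Among all genes tested, 650 (4.41%) were higher in all 6 and 600 (4.07%) lower. Since Htr1a, Htr4 and Htr7 were picked on part of these libraries, the share of receptors is not set against this background.

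Ligation was compared with thrombosis alone to see what blocked drainage added. Between CVST+Ligation and CVST the log2 fold change was 2.75 (standard error 0.50) for Htr4, 1.89 (standard error 0.40) for Htr2c, 1.25 (standard error 0.29) for Htr1a and 1.18 (standard error 0.24) for Htr7. It was -0.55 (standard error 0.49) for Htr2a, -0.48 (standard error 0.41) for Htr5a and -0.26 (standard error 0.49) for Htr1b. Tph2 had the largest value, 5.34, with a standard error of 1.71. Without CVST+Ligation replicate 2 the value for Tph2 was 0.05 (standard error 0.63), and those of the receptors were 2.98 (Htr4), 1.77 (Htr2c), 1.21 (Htr1a), 1.19 (Htr7), -0.26 (Htr2a), -0.26 (Htr5a) and -0.66 (Htr1b).

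Of the 8 genes tested in this comparison, 5 had an unadjusted p below 0.05, where 9.64% of all genes did, and 4 did not overlap between the groups, where 13.8% of all genes did not. Adjusted by Benjamini-Hochberg over the whole table, 0 of the 8 passed in edgeR, against 0.0203% of all genes (3 genes). In DESeq2 4 passed, where 264 of all genes did. Nothing is read from these counts, because the comparison was used to pick members of the set.

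4-PBA was compared with CVST+Ligation to see what the chaperone changed in ligated mice, and none of the receptors changed after adjustment. The CVST+Ligation libraries are the same that served in the comparison above, for which Htr1a, Htr4 and Htr7 were picked. A gene picked for high values in these libraries is more likely to be lower in another group. The values are therefore not independent of the pick, and nothing is read from the count of genes. At an unadjusted p below 0.05, 2 of the 8 genes passed, where 3.23% of all genes did. They were Tph2 and Htr1a, both lower with 4-PBA. The difference in Tph2, -5.41 on the log2 scale (standard error 1.71, adjusted p = 1 in edgeR's quasi-likelihood test), was -0.12 (standard error 0.63) without CVST+Ligation replicate 2. That of Htr1a was -0.67 (standard error 0.29, adjusted p = 1, edgeR), and its groups did not overlap, as was so for 7.73% of all genes tested. Without CVST+Ligation replicate 2 it was -0.63 (standard error 0.32), no longer past the unadjusted threshold, and the same was so without CVST replicate 2 and without any other single library of the groups compared except 4-PBA replicate 1 (range -0.75 to -0.49 over these fits).

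The other receptor differences were 0.40 for Htr4, 0.22 for Htr2c, 0.37 for Htr7, 0.42 for Htr1b, -0.49 for Htr2a and -0.55 for Htr5a. Their 95% intervals were -0.59 to 1.40 for Htr4, -0.63 to 1.07 for Htr2c, -0.16 to 0.90 for Htr7, -0.68 to 1.52 for Htr1b, -1.61 to 0.63 for Htr2a and -1.48 to 0.37 for Htr5a. A rise of 2-fold, 1 on the log2 scale, lay within the intervals of Htr4, Htr2c and Htr1b, and a fall of 2-fold within those of Htr2a and Htr5a. In the fit without CVST+Ligation replicate 2 the differences were 0.19 (Htr4), 0.36 (Htr2c), 0.37 (Htr7), 0.82 (Htr1b), -0.76 (Htr2a) and -0.76 (Htr5a). After adjustment edgeR called 0% of all genes in this comparison, with 476 genes at an unadjusted p below 0.05, while DESeq2 called 22 after adjustment and limma 2 on log2(FPKM + 1) and 0 on log2(FPKM + 0.1).

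4-PBA was also compared with CVST, where the groups differ in both ligation and drug. The CVST libraries are those of the comparison that picked members, so the values are not independent of it. At an unadjusted p below 0.05, 4 of the 8 genes passed, where 15.4% of all genes did, and 3 of them, Htr2c, Htr4 and Htr7, did not overlap between the groups, where 23.7% of all genes did not. The log2 fold change was 3.15 for Htr4 (standard error 0.50, adjusted p = 0.0518), 2.11 for Htr2c (standard error 0.40, adjusted p = 0.0545) and 1.55 for Htr7 (standard error 0.24, adjusted p = 0.0518, edgeR with Benjamini-Hochberg adjustment). Htr5a, the fourth, had -1.03 (standard error 0.41, adjusted p = 0.273, edgeR), and no longer passed without CVST replicate 1 (-0.66), CVST replicate 2 (-0.98), 4-PBA replicate 2 (-0.87) or 4-PBA replicate 3 (-0.98).

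The values of the rest were -1.04 (standard error 0.50) for Htr2a, 0.58 (standard error 0.29) for Htr1a, 0.15 (standard error 0.49) for Htr1b and -0.08 (standard error 1.68) for Tph2. None of the 8 passed after adjustment in edgeR, where 0.122% of all genes (18 genes) did. Htr2c, Htr4 and Htr7 lay just outside this threshold, and all 3 passed in DESeq2, where 855 of all genes did, in limma on log2(FPKM + 1) and log2(FPKM + 0.1), where 87 and 134 did, and in edgeR when all 17446 genes with at least 1 count were tested, where 112 did. All 3 also passed when CVST+Ligation replicate 2, which is in neither group but adds to the shared estimate of the spread, was left out (adjusted p = 0.0172 for Htr4, 0.018 for Htr7 and 0.0286 for Htr2c, edgeR), and in that fit 541 of 14950 genes passed. Of the 3, 2 passed without CVST replicate 3, 1 without 4-PBA replicate 3 and 0 in edgeR without any other single library. Htr2a (-1.40) and Htr1a (0.85) reached an unadjusted p below 0.05 without CVST replicate 3, and Htr1a also without 4-PBA replicate 2 (0.76).

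**Figure D3:**
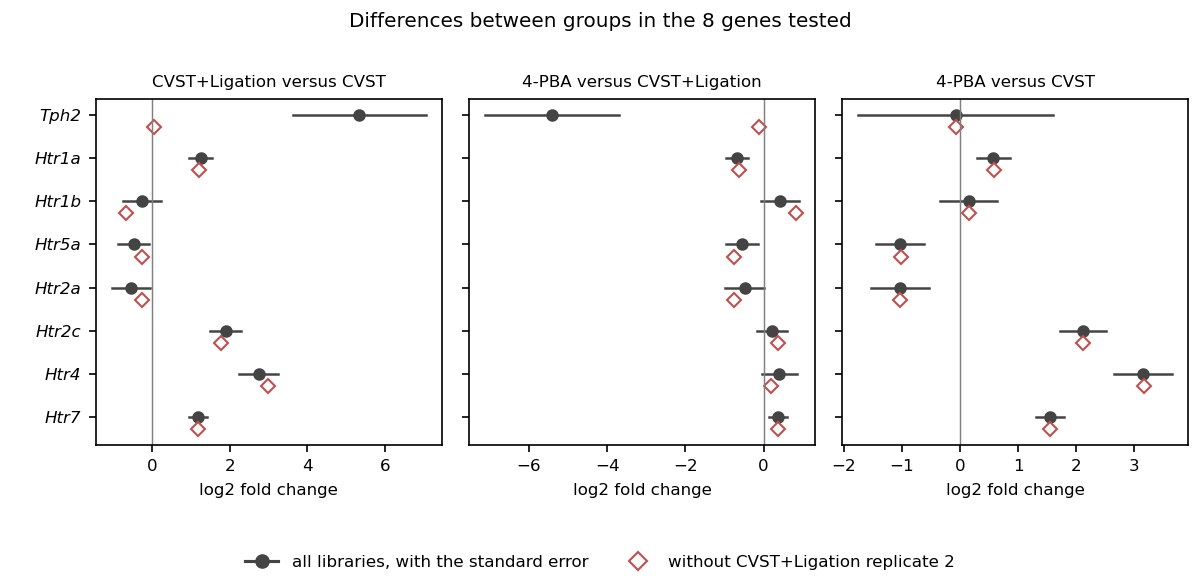
The log2 fold change (horizontal axis) of the 8 genes tested is plotted for each comparison, with filled points for the fit of all libraries and lines for 1 standard error to each side. Open diamonds give the value without CVST+Ligation replicate 2. Tph2 moves from 5.34 to 0.05 and from -5.41 to -0.12, and no receptor changes direction.

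To compare levels between the 7 receptors of the set, the deposited FPKM values, which divide each count by a gene length, were used. The order given is within the set. Outside it, Htr3a had a mean of 7.27 FPKM in the CVST group, 6.68 after ligation and 11.9 with 4-PBA. In the CVST group Htr2c (8.19 ± 3.52 FPKM, SD, n = 3), Htr5a (7.92 ± 3.82), Htr2a (7.55 ± 5.07) and Htr1b (7.28 ± 4.11) came first. The ranges of these 4 neighbours overlapped, and that of Htr1b reached into the range of Htr1a, which followed at 3.66 ± 1.14 FPKM. Htr7 stood at 2.21 ± 0.262 FPKM and Htr4 at 0.391 ± 0.216 FPKM, and the ranges of Htr1a, Htr7 and Htr4 did not overlap.

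In the CVST+Ligation group Htr2c was at 31.6 ± 6.20 FPKM, 3.51 times the next receptor of the set, Htr1a (8.99 ± 1.04), with no overlap of their ranges. Next within the set came Htr1b at 6.29 ± 2.81 FPKM, Htr5a at 5.79 ± 1.79, Htr2a at 5.27 ± 1.98 and Htr7 at 5.14 ± 0.442, each overlapping with its neighbour. Htr4 stayed last of the set at 2.70 ± 0.993 FPKM.

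In the 4-PBA group Htr2c was again first, at 37.3 ± 14.5 FPKM and 4.41 times the next receptor of the set, Htr1b (8.47 ± 3.98). Htr7 stood at 6.77 ± 1.76 FPKM and Htr1a at 5.76 ± 1.57. Htr5a (4.08 ± 1.15), Htr2a (3.87 ± 1.27) and Htr4 (3.67 ± 1.32) came last within the set, and from Htr1b down all neighbours overlapped. The length behind the FPKM values was the coding length of a GENCODE M21 transcript for Htr1a, Htr1b, Htr2a and Htr5a, and another length for Htr2c (1438 bases), Htr4 (1317 bases) and Htr7 (1488 bases), which bears on the order of genes but not on the order of groups.

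With the 7 other receptor genes of the family added, the 14 receptor genes summed to 52.8 ± 12.3 FPKM in the CVST group, 78.0 ± 4.79 FPKM after ligation and 90.9 ± 23.6 FPKM with 4-PBA. Htr2c made up 15.4 ± 6.21% of the sum in the CVST group, 40.5 ± 7.61% after ligation and 40.4 ± 8.22% with 4-PBA (SD, n = 3). Its share was 9.79% to 22.1% in the CVST libraries and 34.8% to 49.9% in the ligated ones. Without Htr2c the sums were 44.6 ± 10.7, 46.4 ± 6.42 and 53.5 ± 13.3 FPKM, and the ranges of the groups overlapped. The share of Htr4 was 0.756 ± 0.452%, 3.43 ± 1.10% and 4.58 ± 3.09%, and that of Htr2a was 13.6 ± 6.45%, 6.74 ± 2.43% and 4.27 ± 0.825%.

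**Figure D4:**
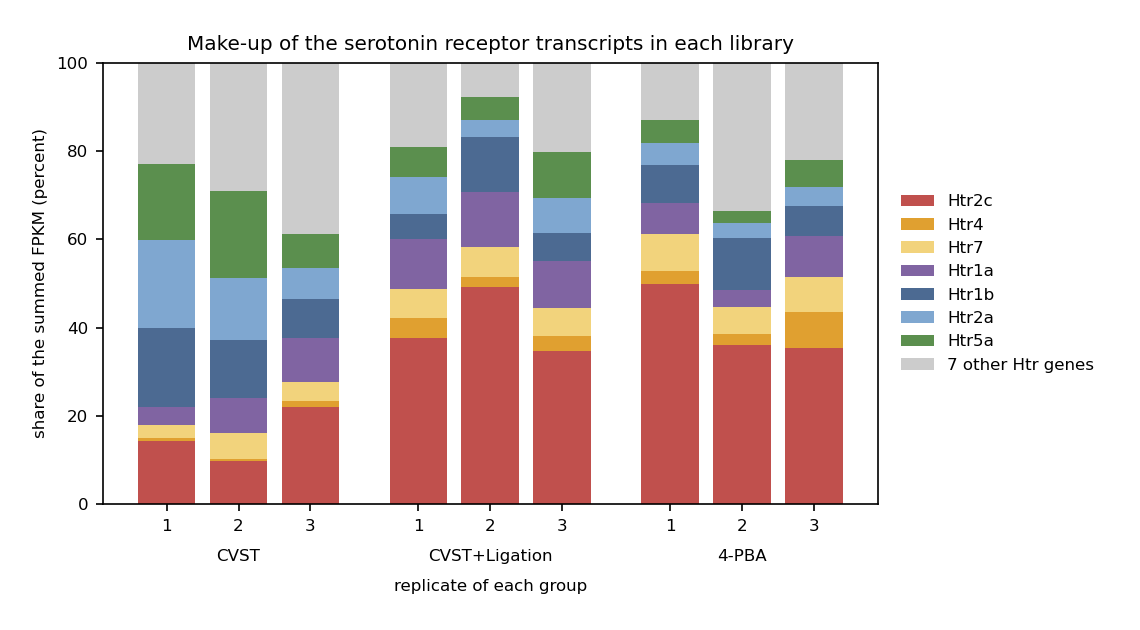
Each bar is 1 library and stacks the share, in percent, of each receptor gene in the summed FPKM of 14 serotonin receptor genes, with the 7 genes outside the set in grey. The Htr2c share is 9.79% to 22.1% in the CVST group and 34.8% to 49.9% in the 6 ligated libraries.

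Of the 7 other receptor genes 5 were tested. Between CVST+Ligation and CVST 0 were higher and 1 lower at an unadjusted p below 0.05, where 9.64% of all genes passed, with a median log2 fold change of -0.71. The lower one was Htr1f, a Gi/o-coupled receptor and the target of a migraine drug, with 2.04, 2.57 and 3.15 CPM in the CVST group and 0.785, 0.103 and 1.36 CPM after ligation. Between 4-PBA and CVST+Ligation 1 was higher (3.23% of all genes passed), with a median of 0.80, and between 4-PBA and CVST 0 passed in edgeR either way (15.4% of all genes passed), with a median of 0.33. None passed after adjustment in edgeR in any of these comparisons. With CVST+Ligation replicate 2 left out, 6 were tested, and Htr1f stayed lower after ligation, while 0 passed in edgeR between 4-PBA and CVST+Ligation and 2 were lower with 4-PBA than in the CVST group (8.07%, 10% and 19.1% of all genes passed in the 3 comparisons of that fit).

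The higher one was Htr1d, a Gi/o-coupled receptor, with 0.579, 1.44 and 1.45 CPM after ligation. It had 1.84, 7.70 and 1.22 CPM with 4-PBA, 1 library standing above the rest. Htr3a, a subunit of the serotonin-gated ion channel and the highest gene of this list, had 31.3 CPM in the same library, 4-PBA replicate 2, against 3.76 to 14.3 CPM in the others. Htr3b, the partner subunit of that channel, had 3.91 CPM there and at most 0.0879 CPM elsewhere.

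Of 28 genes for G proteins, adenylyl cyclases, phospholipases, potassium channels and other partners of the receptors, all were tested. Between CVST+Ligation and CVST 4 were higher and 3 lower at an unadjusted p below 0.05, where 9.64% of all genes passed, with a median of 0.04. With 4-PBA against CVST the counts were again 4 and 3, where 15.4% of all genes passed, with a median of -0.14. The counts without CVST+Ligation replicate 2 were 4 and 2 in the first comparison, where 8.07% of all genes passed, and 4 and 4 in the second, where 19.1% did, with 2 genes past adjustment in the latter, as were 541 of all genes. With all libraries, in neither did a gene of the list pass after adjustment. Ppp1r1b, which carries dopamine and cAMP signals in striatal neurons, differed by -2.32 (standard error 0.53) and Rgs4, which shortens G-protein signals, by -1.43 (standard error 0.45) between CVST+Ligation and CVST. Against CVST+Ligation, 1 gene passed with 4-PBA, where 3.23% of all genes did, and 3 (10.7% of the list) without CVST+Ligation replicate 2, where 10% of all genes did. The 1 gene was the potassium channel gene Kcnj5, of a family whose channels can open when Htr1a is active. Kcnj3, Kcnj6 and Kcnj9, of the same family and list, did not pass, so the list shows no common rise. Kcnj5 was the gene that changed. Kcnj5 differed by 1.66 (standard error 0.48, adjusted p = 1, edgeR's quasi-likelihood test), with 0.670 to 0.951 CPM after ligation and 2.21 to 3.31 CPM with 4-PBA.

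Markers of brain regions moved with the groups beside the receptors. In the comparison of CVST+Ligation with CVST, 8 of 8 listed striatal genes were lower at an unadjusted p below 0.05, where 9.64% of all genes passed, and 6 of 7 midbrain dopamine genes and 6 of 8 thalamic genes were higher. The summed level of the thalamic genes was 68.0 to 79.5 CPM in the CVST group and 164 to 662 CPM in the 6 ligated libraries. That of the striatal genes was 773 to 1351 CPM in the CVST group, 154 to 409 CPM after ligation and 197 to 1009 CPM with 4-PBA. Hippocampal genes summed to 9.14 to 61.1 CPM in the CVST group, 23.7 to 156 CPM after ligation and 42.0 to 117 CPM with 4-PBA. Of the hippocampal genes 2 of 6 were higher between CVST+Ligation and CVST at an unadjusted p below 0.05, of the choroid plexus genes 1 of 8 and of the cerebellar genes 4 of 4 tested, while 3 of 8 cortical excitatory neuron genes were lower. Of the hypothalamic genes 2 of 6 were higher and 1 lower. The only noradrenergic gene tested, Dbh, which makes noradrenaline from dopamine, was higher, with 0.170, 0.355 and 0.597 CPM in the CVST group and 0.372, 10.6 and 0.264 CPM after ligation. Without CVST+Ligation replicate 2 its log2 fold change was -0.21 (standard error 1.03) in place of 3.32 (standard error 1.43), and 3 of the 4 cerebellar genes were higher. In that fit, where 8.07% of all genes passed, 7 of 8 striatal genes were lower, 6 of 7 dopamine, 7 of 8 thalamic and 4 of 6 hippocampal genes higher, 0 of 8 choroid plexus genes passed in edgeR, 2 of 8 cortical genes were lower, and the hypothalamic counts were the same.

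In the comparison of 4-PBA with CVST+Ligation, 6 of 6 hypothalamic genes tested were higher, where 3.23% of all genes passed, with sums of 2.23 to 20.9 CPM after ligation and 277 to 473 CPM with 4-PBA, while they summed to 2.25 to 3.47 CPM in the CVST group. Thalamic genes were higher in 5 of 8, choroid plexus genes in 3 of 8 and striatal genes in 1 of 8, and lower were 3 of 4 cerebellar and 2 of 8 cortical genes. None of the dopamine, hippocampal and noradrenergic genes passed in edgeR. Without CVST+Ligation replicate 2, where 10% of all genes passed, the cerebellar count was 1 of 4, the cortical 4 of 8 and the thalamic 4 of 8, 1 of 6 hippocampal genes and 1 of 2 noradrenergic genes were lower, and the hypothalamic, choroid plexus, striatal and dopamine counts were the same.

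With 4-PBA against CVST, 8 of 8 thalamic genes, 6 of 7 dopamine genes, 6 of 6 hypothalamic genes, 3 of 8 choroid plexus genes, 2 of 6 hippocampal genes and 1 of 4 cerebellar genes were higher, where 15.4% of all genes passed. Lower were 5 of 8 cortical genes and 1 of 8 striatal genes, and Dbh did not pass. After adjustment 1 thalamic, 3 dopamine and 2 hypothalamic genes passed, as did 18 of all genes tested. In the fit without CVST+Ligation replicate 2, where 19.1% of all genes passed at the unadjusted threshold, higher were 8 of 8 thalamic, 6 of 7 dopamine, 6 of 6 hypothalamic, 4 of 8 choroid plexus, 2 of 6 hippocampal and 2 of 4 cerebellar genes. Lower were 6 of 8 cortical, 1 of 8 striatal and 1 of 2 noradrenergic genes. After adjustment 8 thalamic, 5 dopamine, 6 hypothalamic, 5 cortical, 1 choroid plexus and 1 cerebellar gene passed in that fit, as did 541 of all 14950 genes tested. Cortical excitatory neuron genes summed to 2039 to 2445 CPM in the CVST group, 630 to 1872 CPM after ligation and 743 to 1049 CPM with 4-PBA, so markers of the cortex were present in every library, and lowest in CVST+Ligation replicate 2 and the 4-PBA group. The part of these markers in the receptor differences was not tested.

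The genes most like each receptor over the 9 libraries were found by the Pearson correlation of log2 CPM, and are given as a description, since all points share the groups and their regional markers. For Htr4 they included Rnf128 (0.967) and the dopamine transporter gene Slc6a3 (0.957). For Htr7 they were Pnma8b (0.974), Pcdh18 (0.973) and Adarb2 (0.969), and for Htr2c Elavl2 (0.982), Lhfpl3 (0.980) and Trp53bp1 (0.979). Htr1a was most like Rasgrf1 (0.950), Rnf182 (0.947) and Cecr2 (0.919).

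For Htr2a the closest were Kdm5b (0.982), Cep68 (0.978) and Ppp2r2c (0.971), for Htr5a Gna11 (0.978), Nrsn1 (0.971) and Sirpa (0.968), and for Htr1b Cacng4 (0.919), Duox1 (0.918) and Asic1 (0.887). The mean of the standardised values of Tph2, Slc6a4 and Fev was most like Rgl3 (0.988), Cdc42bpg (0.978) and Washc2 (0.963). In that last pattern CVST+Ligation replicate 2 stands far from the other 8 libraries. The search for all patterns covered only genes that passed the expression filter. Of the listed Hox genes 0 of 8 passed it, and of the cerebellar genes 4 of 6, so the genes left out could not be named. Among the receptors, Htr2c, Htr4 and Htr7 correlated with each other at 0.862 to 0.893 and Htr2a with Htr5a at 0.901 over the same 9 libraries. Htr5a gave -0.586 with Htr4, the most negative pair, -0.554 with Htr2c and -0.520 with Htr7, and Htr2a gave -0.47 with Htr4.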

How the data were processed

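The authors extracted RNA with TRIzol, sequenced it as read pairs, used fastp for read filtering and HISAT2 for alignment, assembled transcripts with StringTie and quantified genes with RSEM. Build GRCm38 (mm10) stands in the submitters' processing notes, and tool versions are not given in the sources used here. The authors deposited counts, whole numbers of reads per gene symbol without normalization, and a table their methods call TPM. Its columns do not share a sum, and each value equals the count per library total and per a fixed gene length, so the deposited values are FPKM. How reads with more than 1 matching gene were treated is not given in the sources used here.

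The counts were tested with edgeR 4.0.16 in R 4.3.3 (TMM scaling, filterByExpr, quasi-likelihood test, Benjamini-Hochberg adjustment over 14746 genes) in a model of the 3 groups, which came from the sample labels. The standard errors are those of the model, and intervals of fold changes use its degrees of freedom. Counting intervals are exact at 95% and cover counting error only. Alternatives were other scalings and filters, DESeq2 1.42.0, limma 3.58.1 on log2(FPKM + 1) and log2(FPKM + 0.1), a fit of only the groups compared, the replicate number as a block and each library left out in turn. A fit of all genes with at least 1 count without CVST+Ligation replicate 2, the counts of the lists without it, and the values of each comparison without single libraries of the third group were added after seeing the data. The edgeR, DESeq2 and limma fits were tried on simulated counts for the comparison of CVST+Ligation with CVST, and the other steps were not. Plots were drawn with matplotlib 3.10.9. Gene positions came from GENCODE M21 and promoters from RefSeq, which matched 9 of the 10 genes.

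The genes and lists were chosen with earlier results of these data known. Genes of a list are named when they are among its 4 smallest unadjusted p in a comparison and below 0.05, or are its highest gene, and the 3 genes most like each receptor are named by their correlation, of which 1 is not reported here. Slc29a4, En2, Lmx1b, Dbh, Aldh1a1, Slc6a3, Th, Pitx3, Chrna6, Foxa1, Nr4a2, Otx2, Ttr, Maoa, Maob, Htr1d and Htr3b were named after their values were seen, where this rule did not name them. The same was so for Phox2a, Kl, Folr1, Kcne2, Clic6, Kcnj13, Slc4a5, Kcnj3, Kcnj6, Kcnj9, Mpdz, Adarb2 and Gnaq.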

Additional observations from a re-analysis of the deposited data

How the results depend on the processing

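Of the log2 fold changes of single genes under other settings, 404 kept their direction and their side of the unadjusted threshold, 25 lost it, 10 gained it and 11 changed direction. DESeq2 gave no p for Tph2 in any of the 3 comparisons, with its direction kept. Between CVST+Ligation and CVST, DESeq2 called 4 of the genes after adjustment in place of 0, and 264 of all genes in place of 3, which became 0 without CVST replicate 1 and 7 without CVST+Ligation replicate 2 (leave-one-out range 0 to 7). Without CVST replicate 1, Htr1b was at 0.30 and Htr2a at 0.13 (leave-one-out ranges -0.66 to 0.30 and -0.91 to 0.13). Between 4-PBA and CVST+Ligation, the 2 genes at an unadjusted p below 0.05 became 1 with total counts, DESeq2, both limma fits and the added fit without CVST+Ligation replicate 2, and 0 to 2 with single libraries left out, 0 of them without CVST+Ligation replicate 2. Among all genes, 476 became 445 with total counts, 570 with DESeq2, 439 and 420 with limma and 1554 with the added fit. With single libraries left out they were 256 to 1497, the highest without CVST+Ligation replicate 2. Without 4-PBA replicate 1, Htr2c was at -0.070 (leave-one-out range -0.070 to 0.49).

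Between 4-PBA and CVST, the 0 genes called after adjustment became 3 with DESeq2, both limma fits, all genes with at least 1 count and the added fit, 2 with only the groups compared, and 0 to 3 with single libraries left out: 3 without CVST+Ligation replicate 2, which is in neither group, 2 without CVST replicate 3 and 1 without 4-PBA replicate 3. The 18 calls among all genes became 855 with DESeq2, 87 and 134 with limma, 112 with all genes with at least 1 count, 561 with the added fit and 234 with only the groups compared. They became 6 when at least 10 counts in every library were asked for. There were 541 without CVST+Ligation replicate 2, and 2 to 162 without any other single library, 2 without CVST replicate 1 or 4-PBA replicate 1 and 162 without CVST replicate 3. Tph2 was at 0.0026 with total counts and at -0.97 to 0.29, and Htr1b at -0.23 to 0.72, with single libraries left out. The ratio of Htr2c to Htr1a in the CVST+Ligation group was 4.00 in CPM in place of 3.51 in FPKM. The causes were not tested.

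The replicate numbers in the labels do not pair the libraries: deviations of same-numbered libraries correlated at -0.05 to 0.32, and 3 of 9 libraries were most like their own number in both other groups. With the replicate block, 0 genes in place of 2 had an unadjusted p below 0.05 between 4-PBA and CVST+Ligation. Of all genes 521 did, in place of 476. Between 4-PBA and CVST 1 in place of 0 passed after adjustment, where 25 of all genes did in place of 18, and Tph2 was at 0.20. The floor of 3 counts limits what can be said of Slc6a4 and Fev outside CVST+Ligation replicate 2.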
